A study of Homo sapiens with 10 samples.

Results

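The 40 genes described here encode the SR proteins, the hnRNPs and a set of other factors that decide which exons are joined in a messenger RNA. They were taken as a named list of 12 SR proteins and relatives, 17 hnRNPs and 11 further splicing regulators, and were found among the 58302 genes of each table by Ensembl identifier, whatever their values. RNA-Seq was read from 10 libraries of 3 human hepatocellular carcinoma cell lines, 1 library per condition. SK-Hep1 cells were mock control cells or transfectants overexpressing either PSPC1 or PSPC1-Y523F, each without and with PTK6. PSPC1 is a paraspeckle protein, PTK6 is a tyrosine kinase, and PSPC1-Y523F is the methods' name for a form labelled YF, in which a tyrosine of PSPC1 is exchanged for phenylalanine. Mahlavu cells were mock control cells or were labelled as overexpressing PSPC1-CT131, the C-terminal end of PSPC1, or PSPC1-mutNLS, a mutant of its nuclear localization sequence. The label of this last library does not say whether the mutant is full-length PSPC1 or the C-terminal fragment, and the methods name a fragment. Huh-7 cells were untreated or given 10 ng/ml hepatocyte growth factor (HGF) for 48 h. The constructs were expressed from plasmids, and neither the labels nor the methods say whether the sequenced cells were 1 clone or a pool. The series asked how PSPC1 and PTK6 act on the transcriptome of liver cancer cells, and the question here is what happened to the transcripts of the splicing machinery's regulators.

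Pre-mRNA splicing is carried out by the spliceosome, and its choice of splice sites is steered by proteins that bind the transcript nearby. SR proteins carry RNA recognition motifs and a tail rich in arginine and serine, bind exonic enhancers and generally favour inclusion of an exon. The hnRNPs coat nascent RNA and often act against them by binding silencers, while regulators such as PTBP1, MBNL1, QKI and RBFOX2 act in either direction according to where they bind. Many SR protein and hnRNP genes control their own level by splicing a poison exon into their transcript, so that their messenger RNA is destroyed when the protein is plentiful. The tables give 1 value per gene, so transcripts with and without such an exon cannot be told apart.

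The targeted genes were examined first. PSPC1 had 0 reads in the SK-Hep1 mock library, 209 reads in PSPC1 cells and 930 in PSPC1/PTK6 cells. It had 71 reads in cells with PSPC1-Y523F alone and 2539 where PTK6 was added to this form. In Mahlavu it had 1582 reads in mock cells, 899 in the library labelled PSPC1-CT131 and 632 in the library labelled PSPC1-mutNLS, so that PSPC1 was not raised where the labels name an overexpressed form of it. PTK6 stood at 16.7 and 10.5 FPKM (fragments per kilobase of transcript per 1e6 reads) in the libraries with PTK6 against 4.09 to 5.69 in the other SK-Hep1 libraries. All 13 hepatocyte markers reached 1 FPKM in Huh-7, whereas 1 or 2 of them, SERPINA1 and CPS1, did so in each SK-Hep1 and Mahlavu library, with ALB listed at 0 in all 8. None of the 7 endothelial markers reached 1 FPKM in SK-Hep1 or Mahlavu. The SK-Hep1 mock library also stood apart in other measures, whose part in the results was not tested: mitochondrial genes took 0.463% of its reads against 0.759% to 1.74% in its transfectants. The 6 mesenchymal markers summed to 868 FPKM in it against 517 to 765, and the 5 haematopoietic markers, of which CD14 alone reached 1 FPKM, to 18.3 against 6.07 to 16.6. In Mahlavu mock the mesenchymal sum was 395 FPKM against 635 and 536. Reads on genes numbered 19085682 to 24278662 in the SK-Hep1 and Mahlavu libraries, and 16374128 and 15245935 in Huh-7.

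Of the 40 genes, 39 were matched to 1 identifier. MATR3, a nuclear matrix protein that binds RNA, has 2 identifiers that share exons on chromosome 5, and the one used had at most 32 reads in any SK-Hep1 or Mahlavu library, so its level could not be read there. Another annotated gene on the same strand (GENCODE 29) covers 56.6% of the exon bases of SRSF1 and 44.1% of those of HNRNPUL2. For HNRNPH2 and HNRNPL the share is 16.3% and 8.22%, and reads from these stretches are uncertain. The kit did not mark strand, so reads from overlaps with genes on the opposite strand are uncertain too. Those overlaps were not counted for any member. The 19 members with processed copies in the genome, 131 copies in all, had few reads on them beside MATR3. The 74 copies of HNRNPA1 together held 0.104% to 0.877% as many reads as HNRNPA1, and the 3 copies of MATR3 held up to 28.6% as many as MATR3. The levels below are exonic reads over the whole gene, for example SRSF1 at chr17:58003360-58007346, TRA2B at chr3:185915906-185938136 and HNRNPA1 at chr12:54280193-54287088 in GRCh38.

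Upstream sequence was found for 34 of the 40 genes in RefSeq (GRCh38.p14), in windows from 250 bases before to 50 bases after the start. The genes without an entry were HNRNPA1, ELAVL1, RBFOX2, SRSF2, QKI and TRA2A. The following 4 are shown because they belong to genes that were at least 1.5-fold lower in 3 or 4 of the 6 transfectants, and run 5′ to 3′ up to the base before the annotated gene, with matches to CCAAT and GGGCGG on either strand in capitals.
SRSF1, chr17:58007347-58007496, minus strand: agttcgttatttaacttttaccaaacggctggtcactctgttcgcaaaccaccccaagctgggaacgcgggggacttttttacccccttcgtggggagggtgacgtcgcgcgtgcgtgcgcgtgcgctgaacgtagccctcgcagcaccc
TRA2B, chr3:185938137-185938264, minus strand: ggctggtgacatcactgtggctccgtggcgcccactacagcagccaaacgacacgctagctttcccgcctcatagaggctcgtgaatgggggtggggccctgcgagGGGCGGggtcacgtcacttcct
HNRNPR, chr1:23344337-23344534, minus strand: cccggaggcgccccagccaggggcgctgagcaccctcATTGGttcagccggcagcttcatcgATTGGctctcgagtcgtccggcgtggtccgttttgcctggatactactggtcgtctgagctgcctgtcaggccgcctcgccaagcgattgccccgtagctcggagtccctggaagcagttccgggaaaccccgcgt
HNRNPAB, chr5:178204283-178204506, plus strand: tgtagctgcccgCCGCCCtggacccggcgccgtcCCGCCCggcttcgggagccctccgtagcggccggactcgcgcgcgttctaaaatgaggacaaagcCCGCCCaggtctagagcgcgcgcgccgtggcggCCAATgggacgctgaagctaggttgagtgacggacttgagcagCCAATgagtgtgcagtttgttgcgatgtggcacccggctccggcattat
SRSF1 shows neither element in these 150 bases, TRA2B has 1 GGGCGG, HNRNPR has 2 CCAAT on the reverse strand, and HNRNPAB has 2 CCAAT on the strand shown and 3 GGGCGG on the reverse strand. Windows of HNRNPH1, SRSF6 and SRSF9, which were lower in 3 of the 6 transfectants, met the same rule and are not shown. SRSF6 has 2 GGGCGG on the reverse strand, and HNRNPH1 and SRSF9 have neither element. Over the full windows, CCAAT occurred in 19 of the 34 genes (55.9%) and in 39.7% of all 27305 genes with a window. GGGCGG, the GC box, occurred in 25 (73.5%) against 48.3%. CACGTG, the E-box, occurred in 7 (20.6%) against 8.77%, CCGGAAG in 6 (17.6%) against 12.2%, TATAAA in 7 (20.6%) against 14%, and the palindrome TCGCGA in 5 (14.7%) against 3.76%. A gene was counted if any of its windows matched, and genes differ in their number of windows, with 35116 windows for the 27305 genes. The 27305 genes were not limited to expressed ones, and no enrichment was tested. These are matches of letters, and no binding was measured.

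Levels spanned several orders of magnitude, and HNRNPA1 led in most libraries. HNRNPA1, which packages RNA and promotes exon skipping, stood at 1321 FPKM in SK-Hep1 mock cells, at 1057 and 855 with PSPC1 without and with PTK6, and at 743 and 826 with PSPC1-Y523F without and with PTK6. It stood at 564 in Mahlavu mock cells, at 431 and 356 in the libraries labelled PSPC1-CT131 and PSPC1-mutNLS, and at 1327 and 1252 in untreated and HGF-treated Huh-7 cells. Each mock library was thus the highest of its line. PTBP1, the polypyrimidine tract binding protein, HNRNPC and HNRNPUL1 were at 217 to 788 FPKM over all libraries. At the other end, PTBP2, the neuronal relative of PTBP1, was at 0.561 to 5.58 FPKM, and PTBP1 exceeded it 64.8-fold to 874-fold. The 874-fold ratio rests on 29 PTBP2 reads, in the library labelled PSPC1-CT131. All SR proteins lay between 11.6 FPKM (TRA2A in the library labelled PSPC1-mutNLS) and 165 FPKM (SRSF9 in SK-Hep1 mock). The summed FPKM of the 12 SR proteins was 984 in SK-Hep1 mock and 652 to 870 in its transfectants, 1034 in Mahlavu mock and 720 and 699 in its transfectants. The 17 hnRNPs summed to 4644 against 3272 to 3747, and to 3409 against 2768 and 2573. In these deposited FPKM the Mahlavu mock library was the highest of 3 for 45.3% of all genes. The SK-Hep1 mock library was the highest of 5 for 17.9%. The 40 genes together took 1.08% of the reads on genes in SK-Hep1 mock and 0.766% to 0.898% in its transfectants.

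**Figure D1:**
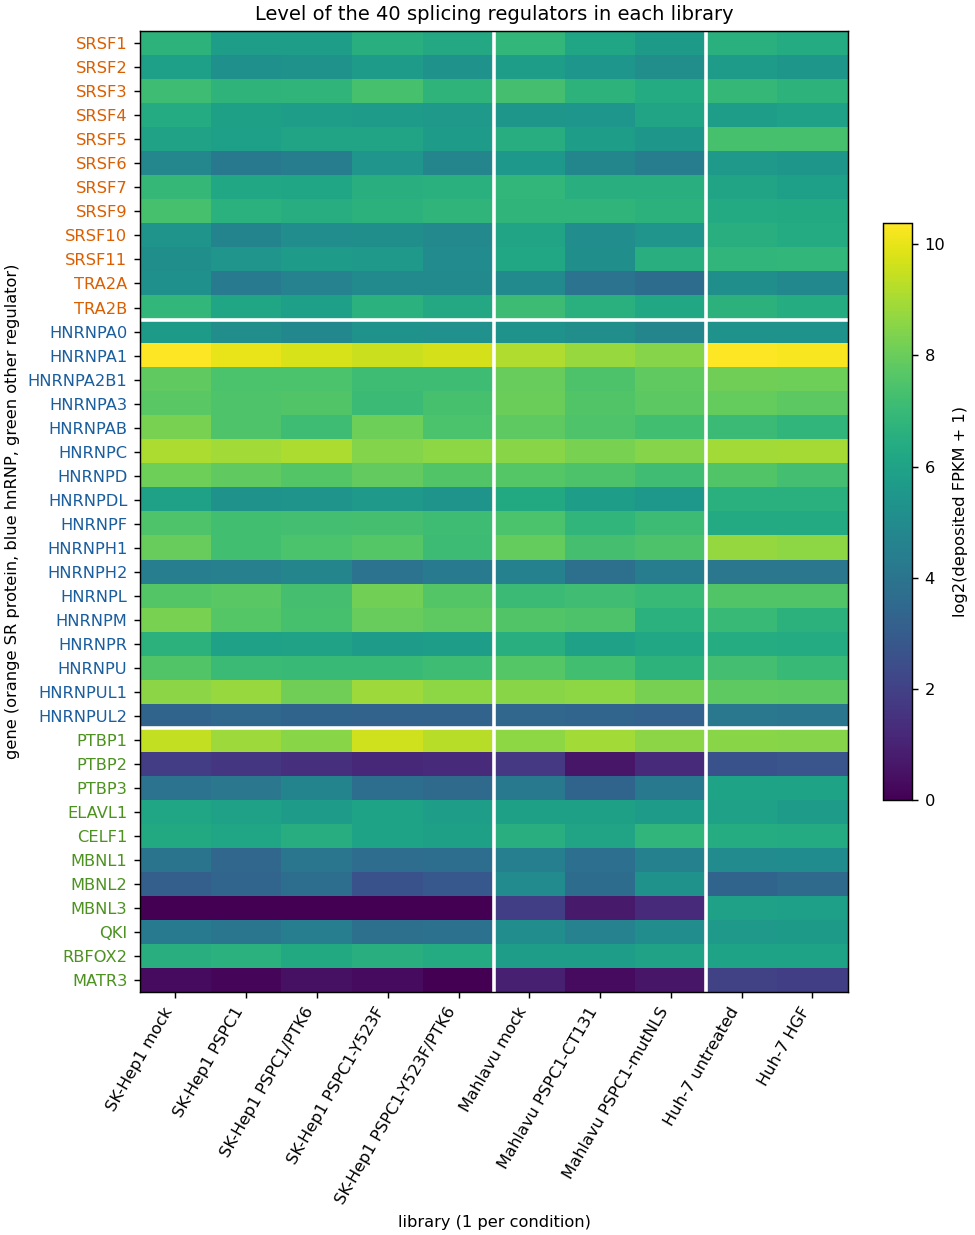
Heat map of the 40 genes (rows, colours of the names mark SR proteins, hnRNPs and other regulators) in the 10 libraries (columns), as log2(deposited FPKM + 1). HNRNPA1 is the brightest row in most libraries, and MBNL3 is dark in SK-Hep1 and at 60.5 and 57.2 FPKM in Huh-7.

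Between 6 and 15 of these regulators were at least 1.5-fold lower than in mock cells in each transfectant. In none were 12 so, among them MATR3, which could not be compared in any. The share of all genes lower in none was not computed. Changes are given as log2 fold changes of quantile-normalized FPKM with 1 added, where the mean of the 2 libraries reached 1 FPKM, and a change of at least 1.5-fold was counted. With 1 library per condition there is no test of a condition, and the share of all genes past the same fold is given beside each count. In PSPC1 cells 11 of 38 members (28.9%) were lower and 0 higher, against 8.66% lower and 9.56% higher over all genes. In PSPC1/PTK6 cells 15 of 38 (39.5%) were lower and 0 higher, against 12.8% and 12.4%. In PSPC1-Y523F cells 7 of 38 (18.4%) were lower and 1 higher, against 9.33% in each direction. In PSPC1-Y523F/PTK6 cells 6 of 38 (15.8%) were lower and 0 higher, against 7.1% and 8.19%. The library labelled PSPC1-CT131 had 13 of 38 (34.2%) lower and 0 higher, against 12.3% and 11.2%, and the library labelled PSPC1-mutNLS had 13 of 39 (33.3%) lower and 1 higher, against 11.3% and 11.1%. The medians of the members in these 6 comparisons were -0.39, -0.43, -0.23, -0.33, -0.45 and -0.36, while those of all genes lay between -0.04 and 0.01. The 4 comparisons within SK-Hep1 share 1 mock library and the 2 within Mahlavu share another, so that a state of the mock library and an effect of the constructs cannot be told apart.

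**Figure D2:**
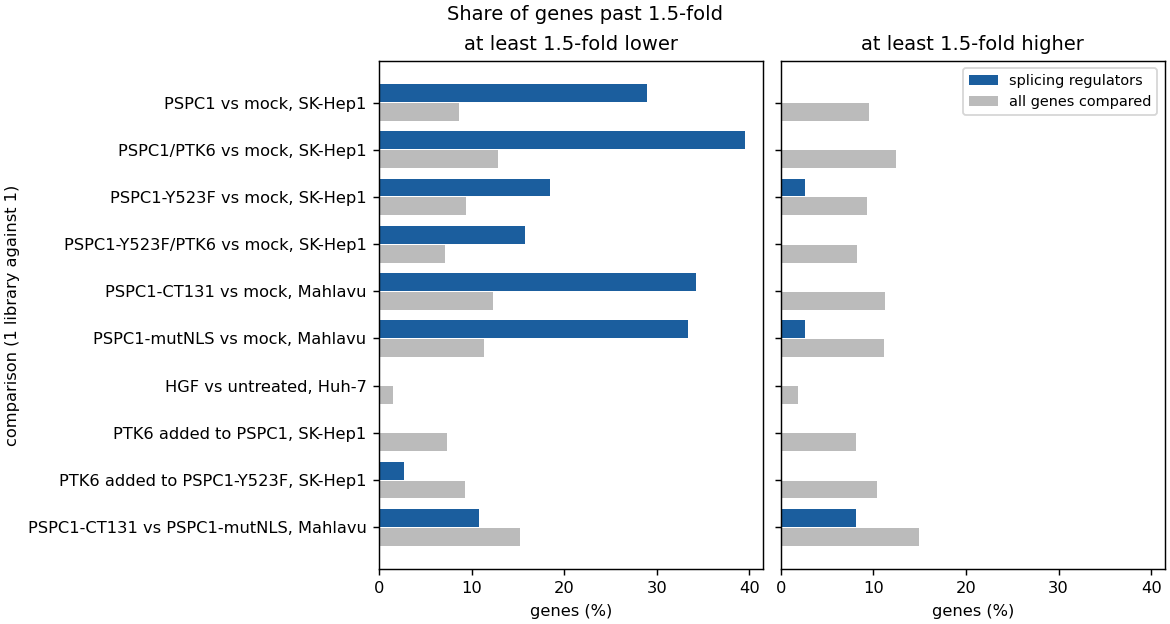
Percent of the splicing regulators (blue) and of all genes compared (grey) that were at least 1.5-fold lower (left) or higher (right) in each of 10 comparisons of 1 library against 1. In the 6 comparisons with mock cells the blue bars for lower genes reach 15.8% to 39.5% and exceed the grey bars, and the bars for higher genes do not.

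The members have a lower GC content than other genes, with a median of 40.6% against 49.2% in their longest transcripts, and GC content moved with the changes in several comparisons. Its part in the members' changes was not tested beyond the fit below. Spearman's rho between GC content and log2 fold change over all genes, which are not independent replicates, was 0.57 for the library labelled PSPC1-CT131, 0.25 for both PSPC1-Y523F comparisons with mock, 0.18 for PSPC1, -0.09 for PSPC1/PTK6 and -0.10 for the library labelled PSPC1-mutNLS. After a quadratic fit of GC content and length was subtracted, 8 members were lower than mock with PSPC1 and 17 with PSPC1/PTK6, against 9.54% and 13.8% of all genes. The fit left 3 of 38 with PSPC1-Y523F, where 9.05% of all genes were lower, so that no excess remained there. It left 5 where PTK6 was added to this form and 15 in the library labelled PSPC1-mutNLS, against 7.91% and 10.9% of all genes. In the library labelled PSPC1-CT131 it left 2 in place of 13, with a median of -0.19 in place of -0.45, against 6.88% of all genes, and no excess remained. In read counts scaled by TMM, PSPC1-CT131 gave 7 of 39 lower and 1 higher, with a median of -0.20, where 14.2% of all genes were lower. PSPC1-mutNLS gave 10 of 39 lower and 1 higher, with a median of -0.15, where 11% of all genes were lower. For PSPC1-Y523F the fit left 3 lower and 2 higher, while in FPKM as deposited PSPC1/PTK6 gave 12 lower and 2 higher, where the median of all genes was itself 0.15. Among the members past 1.5-fold, 12 of 15 in PSPC1/PTK6, 9 of 14 in the library labelled PSPC1-mutNLS, 7 of 11 in PSPC1, 4 of 6 in PSPC1-Y523F/PTK6, 2 of 8 in PSPC1-Y523F and 1 of 13 in the library labelled PSPC1-CT131 stayed past it in the same direction under every scaling, pseudocount and fit tried.

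**Figure D3:**
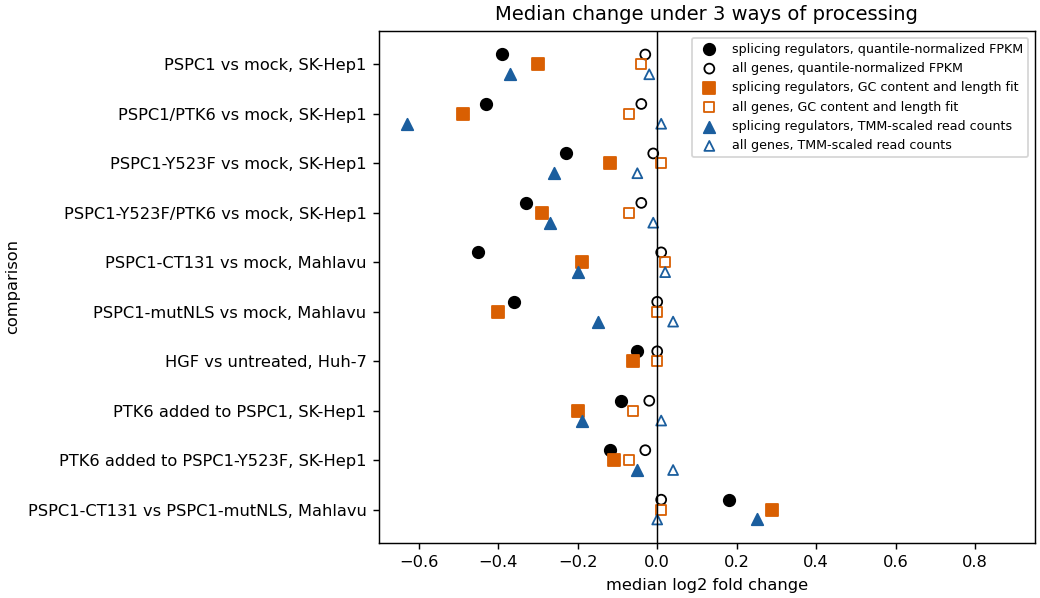
Median log2 fold change of the splicing regulators (filled) and of all genes (open) in each comparison, from quantile-normalized FPKM (circles), after the GC content and length fit (squares) and in TMM-scaled read counts (triangles, not made for Huh-7). The filled symbols lie below the open ones in each of the 6 comparisons with mock cells, and for PSPC1-CT131 they move from -0.45 to -0.19 and -0.20.

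Among the groups, the SR proteins had the lowest median with PSPC1, with PSPC1/PTK6 and in both Mahlavu transfectants, but not with PSPC1-Y523F. SRSF1, which binds exonic enhancers and also acts in nonsense-mediated decay, stood at 104 FPKM in SK-Hep1 mock cells, at 53.7 and 54.3 with PSPC1 without and with PTK6, and at 91.6 and 75.2 with PSPC1-Y523F without and with PTK6. All SK-Hep1 values below follow this order. In Mahlavu it stood at 117 in mock cells, 70.5 in the library labelled PSPC1-CT131 and 48.9 in that labelled PSPC1-mutNLS. Both mock libraries were the highest of their line, and SRSF1 was 1.82-fold lower with PSPC1, 1.94-fold lower with PSPC1/PTK6 and 2.5-fold lower in the library labelled PSPC1-mutNLS. In the latter the exact 95% interval of the log2 read ratio was -1.36 to -1.17, which covers counting error only. The intervals of all members past 1.5-fold excluded equal reads on the same side, in each of the comparisons with mock cells.

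TRA2A and TRA2B, the homologues of the fly sex-determination factor transformer 2, bind enhancers rich in GAA and followed SRSF1. TRA2A was at 36, 18.7, 23.3, 29.6 and 29.4 FPKM in SK-Hep1, and at 29.3, 14.6 and 11.6 FPKM in Mahlavu mock and the libraries labelled PSPC1-CT131 and PSPC1-mutNLS. TRA2B was at 116, 68, 56.6, 98.1 and 76.7 FPKM, and at 137, 94.9 and 71.3 FPKM, in the same order. For both genes the transfectants lay below the mock library of their line without exception, and the transfectants with PSPC1-Y523F lay nearer to it than those with PSPC1. The log2 fold changes of TRA2B were -0.70 and -1.05 with PSPC1 without and with PTK6, and -0.24 and -0.52 with the mutant. The difference between PSPC1 and PSPC1-Y523F rests on 1 library each and could not be tested.

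Over the 12 SR proteins, 7 were at least 1.5-fold lower with PSPC1 and 7 once PTK6 was added, against 1 and 1 with PSPC1-Y523F. The medians were -0.61, -0.64, -0.19 and -0.37. The lower ones were 58.3%, 58.3%, 8.33% and 8.33% of the SR proteins, against 8.66%, 12.8%, 9.33% and 7.1% of all genes. In the libraries labelled PSPC1-CT131 and PSPC1-mutNLS 7 and 8 were lower, with medians of -0.60 and -0.83, and after the GC content and length fit 0 and 8 were. Of all genes 12.3% and 11.3% were lower in these 2 libraries, and 6.88% and 10.9% after the fit. The same fit left 4 SR proteins lower with PSPC1 and 7 once PTK6 was added, against 9.54% and 13.8% of all genes. For PSPC1-Y523F it left 0 lower and 2 higher, against 9.05% and 8.25%. In TMM-scaled counts 3 were lower in the library labelled PSPC1-CT131 and 2 with PSPC1-Y523F, against 14.2% and 12.4% of all genes. SRSF9, a small SR protein, was at 165 FPKM in SK-Hep1 mock and at 97.7, 86.4, 101 and 108 in its transfectants, whereas in Mahlavu its 3 values of 110, 111 and 99.2 lay together. SRSF7, which couples splicing to RNA export, behaved alike in SK-Hep1, at 118 FPKM in mock and 67.5 to 95.5 in the transfectants. SRSF2, a nuclear speckle protein, was at 57.7 FPKM in SK-Hep1 mock and 36.1 to 50.8 in its transfectants, and at 54 in Mahlavu mock against 42.9 and 33.6. SRSF10, the splicing repressor that acts when dephosphorylated, was at 40.7 FPKM against 24.7 to 34.7, and at 64.9 against 32.7 and 41.8. In each of these genes the SK-Hep1 mock library was the highest of its line.

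SRSF3, SRSF5 and SRSF6 were at least 1.5-fold lower in both Mahlavu transfectants, and in SK-Hep1 SRSF6 alone among them was at least 1.5-fold lower, with PSPC1/PTK6. SRSF3, the smallest SR protein, was at 157 FPKM in Mahlavu mock, 104 in the library labelled PSPC1-CT131 and 81.3 in that labelled PSPC1-mutNLS, and at 141, 106, 109, 164 and 107 FPKM in the SK-Hep1 libraries, where PSPC1-Y523F was the highest. SRSF5 was at 87.4, 55.1 and 44.4 FPKM in Mahlavu, while its SK-Hep1 values of 52 to 66.1 lay on both sides of the mock value of 61.8. SRSF6 was at 44.9, 25.9 and 19.6 FPKM in Mahlavu and at 26.8, 17.1, 19.6, 41.2 and 25.4 in SK-Hep1. It was the 1 member at least 1.5-fold higher with PSPC1-Y523F, by 0.59 on the log2 scale, just past the threshold.

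SRSF4 and SRSF11 went other ways. SRSF4 was at 81.8 FPKM in SK-Hep1 mock and at 46.9 to 58.3 in its transfectants, but in Mahlavu the library labelled PSPC1-mutNLS was the highest, at 65.5 FPKM against 44.6 in mock and 42.8 in that labelled PSPC1-CT131. SRSF11, an SR-related protein that contacts U2AF, was at 71.9 FPKM in Mahlavu mock, 35 in the library labelled PSPC1-CT131 and 90.6 in that labelled PSPC1-mutNLS. In SK-Hep1 it was at 34.7 in mock and at 41.3, 50.7, 47.6 and 30.9 in the transfectants, so the mock library was not its highest. After quantile normalization SRSF4 and RBFOX2 were the 2 members whose Mahlavu mock library was the lowest of the 3, which for SRSF4 is not so in deposited FPKM.

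**Figure D4:**
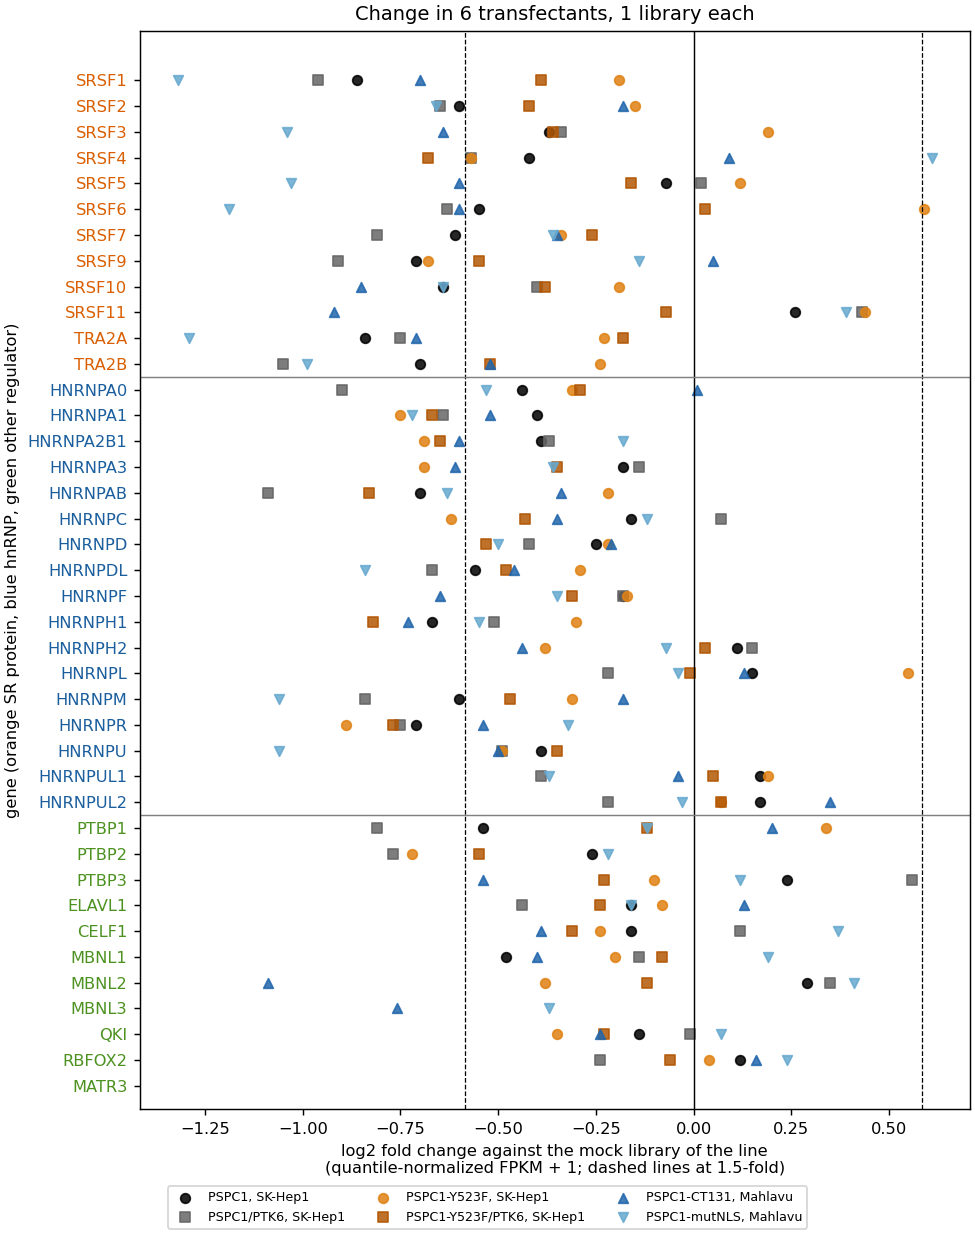
Log2 fold change of each gene (rows) against the mock library of its line, 1 symbol for each of 6 transfectants, with dashed lines at 1.5-fold. Most symbols of the SR proteins and hnRNPs lie left of 0, 17 genes lie left of 0 in all 6 comparisons, and symbols of the other regulators lie on both sides of 0. The share of all genes left of 0 in all 6 was not computed. MATR3 was under the minimum level.

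Among the 17 hnRNPs, 4 were at least 1.5-fold lower with PSPC1, 6 once PTK6 was added, 5 with PSPC1-Y523F without and 5 with PTK6, 4 in the library labelled PSPC1-CT131 and 5 in that labelled PSPC1-mutNLS, and 0 were higher in any. Their medians were -0.39, -0.42, -0.31, -0.43, -0.44 and -0.37. The lower ones were 23.5%, 35.3%, 29.4%, 29.4%, 23.5% and 29.4%, against 8.66%, 12.8%, 9.33%, 7.1%, 12.3% and 11.3% of all genes. Between 8.19% and 12.4% of all genes were higher. In the library labelled PSPC1-CT131 the GC content and length fit left 1 hnRNP lower and TMM-scaled counts 0, with a median of -0.09, against 6.88% and 14.2% of all genes. TMM-scaled counts gave 3 lower in the library labelled PSPC1-mutNLS, with a median of -0.15, and 3 with PSPC1-Y523F/PTK6, but 10 with PSPC1/PTK6. Of all genes 11%, 7.92% and 13.1% were lower there. With PSPC1-Y523F the fit left 2 lower, against 9.05% of all genes. TMM-scaled counts gave 5 lower and 1 higher with it, against 12.4% and 9.19%. HNRNPAB, which binds AU-rich RNA and shuttles to the cytoplasm, was at 315, 183, 141, 270 and 173 FPKM in SK-Hep1, and at 221, 183 and 149 FPKM in Mahlavu mock and the libraries labelled PSPC1-CT131 and PSPC1-mutNLS. Both PTK6 libraries held less of it than the libraries with the same PSPC1 form alone. HNRNPR, a relative of SYNCRIP, was at 102, 59.8, 61.5, 52.5 and 55.3 FPKM, and at 89.9, 59.5 and 72.6 FPKM, in the same order. It was the 1 gene at least 1.5-fold lower in all 4 SK-Hep1 transfectants, which lay close together and far below mock.

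HNRNPM, which promotes the mesenchymal splicing programme, was lowest in the library labelled PSPC1-mutNLS. It stood at 312, 197, 164, 250 and 224 FPKM in the SK-Hep1 libraries, mock first, and at 188, 175 and 96.7 FPKM in Mahlavu mock and the libraries labelled PSPC1-CT131 and PSPC1-mutNLS. HNRNPU, a scaffold attachment factor, had a like order in Mahlavu, at 201, 149 and 103 FPKM, and was at 187 FPKM in SK-Hep1 mock against 126 to 142. HNRNPH1, which binds runs of G, was at 248 FPKM in SK-Hep1 mock against 137 to 201 and at 243 in Mahlavu mock against 157 and 178. Its close relative HNRNPH2 was at 20.6 FPKM in SK-Hep1 mock and at 21.7, 25.5, 14.3 and 19.2 in the transfectants, on both sides of mock, and the ratio of HNRNPH1 to HNRNPH2 was 12 in mock and 6.68 to 14.1 in the transfectants.

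HNRNPA2B1 and HNRNPA3, the relatives of HNRNPA1, were lowest in SK-Hep1 with PSPC1-Y523F. HNRNPA2B1, which recognises methylated RNA and sorting signals, was at 228, 170, 173, 140 and 143 FPKM in SK-Hep1, and HNRNPA3 at 212, 183, 188, 132 and 165 FPKM, mock first. HNRNPA1 was likewise lowest with PSPC1-Y523F, at 743 FPKM. HNRNPC, a tetramer that measures RNA length and shields Alu exons, was at 553, 486, 546, 353 and 390 FPKM in the same order. For these 4 genes both libraries with PSPC1-Y523F lay below both libraries with PSPC1, the reverse of the order in SRSF1 and TRA2B. With 1 library per condition neither order could be tested, and the GC trend was 0.18 with PSPC1, -0.09 with PSPC1/PTK6 and 0.25 in both comparisons with the mutant. HNRNPA0, HNRNPDL and HNRNPF passed 1.5-fold in 1, 2 and 1 of the comparisons. HNRNPD, the AU-rich element binding protein AUF1, passed it in none, although its changes of -0.53 to -0.21 were below 0 in all 6. HNRNPL, HNRNPH2, HNRNPUL1 and HNRNPUL2 also passed it in none, and their changes lay between -0.44 and 0.55.

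Fewer of the other regulators could be compared, and after quantile normalization 0 of them were at least 1.5-fold higher than mock in any transfectant. Of the 9 to 10 compared, 0 were at least 1.5-fold lower with PSPC1, 2 with PTK6 added, 1 with PSPC1-Y523F, 0 where PTK6 was added to it, 2 in the library labelled PSPC1-CT131 and 0 in that labelled PSPC1-mutNLS. Their medians were -0.16, -0.14, -0.20, -0.23, -0.39 and 0.09. The lower ones were 0%, 22.2%, 11.1%, 0%, 22.2% and 0%, against 8.66%, 12.8%, 9.33%, 7.1%, 12.3% and 11.3% of all genes. In TMM-scaled counts PSPC1-CT131 gave 4 of 10 lower and 1 higher, against 14.2% and 12.9% of all genes. PSPC1/PTK6 gave 2 of 9 lower and 1 higher in these counts, against 13.1% and 16.8%. PTBP1, a repressor of neuronal and muscle exons, was at 681, 466, 370, 788 and 621 FPKM in SK-Hep1, with log2 fold changes of -0.54, -0.81, 0.34 and -0.12, of which the one with PSPC1/PTK6 passed 1.5-fold. In Mahlavu it was at 391, 490 and 377 FPKM. PTBP3, a paralogue of PTBP1, was in SK-Hep1 at 14.3, 16.5, 24.6, 12.5 and 10.9 FPKM, and the ratio of PTBP1 to PTBP3 was 47.8 in mock, 28.3 with PSPC1, 15.1 with PSPC1/PTK6 and 63.2 and 57 with the mutant. MBNL2, a muscleblind protein that promotes adult splicing patterns, was at 31.3 FPKM in Mahlavu mock, 11.8 in the library labelled PSPC1-CT131 and 38.9 in that labelled PSPC1-mutNLS. It was the 1 member that stayed past 1.5-fold in PSPC1-CT131 under every scaling, pseudocount and fit tried. MBNL3, a further muscleblind protein, had 222, 48 and 97 reads in the same libraries. After quantile normalization CELF1, ELAVL1, MBNL1, PTBP3, QKI and RBFOX2 passed 1.5-fold against mock in no transfectant. PTBP3 with PSPC1/PTK6 came close, at 0.56 on the log2 scale, and its deposited FPKM of 14.3 and 24.6 lay further apart. In deposited FPKM of Mahlavu mock and the library labelled PSPC1-CT131, PTBP3 was at 17.3 and 9.17 and MBNL1 at 21.3 and 12.8. The median of all genes in that setting was -0.24.

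Seen by library rather than by fold, the mock library of SK-Hep1 was the highest of 5 for 24 of 38 members and the lowest for 0, where it was the highest for 20.2% and the lowest for 16% of all genes. The mock library of Mahlavu was the highest of 3 for 25 of 39 members and the lowest for 2, against 28.9% and 29.9% of all genes. In TMM-scaled read counts the mock library was the highest for 25 of 38 and 19 of 39 members, against 19.2% and 27.1% of all genes. In FPKM as deposited it was the highest for 23 of 38 and 27 of 39 members, against 17.9% and 45.3% of all genes. As deposited, 14 of 39 members were at least 1.5-fold lower than mock in the library labelled PSPC1-CT131, where 25.9% of all genes were lower. For 18 members it was the highest in both lines: SRSF1, SRSF2, SRSF7, SRSF10, TRA2A, TRA2B, HNRNPA1, HNRNPA2B1, HNRNPA3, HNRNPAB, HNRNPD, HNRNPDL, HNRNPF, HNRNPH1, HNRNPM, HNRNPR, HNRNPU and PTBP2. These hold 6 of the 12 SR proteins, 11 of the 17 hnRNPs and 1 of the 11 other regulators. The share of all genes with the mock library highest in both lines was not computed, so the 18 have no background beside them. No member was at least 1.5-fold lower in more than 4 of the 6 transfectants, and the 5 that were so in 4 were SRSF1, TRA2A, HNRNPA1, HNRNPAB and HNRNPR. For this count, too, the share of all genes was not computed. Comparisons that share a mock library are not independent of each other.

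Few of the regulators were past 1.5-fold between libraries with and without PTK6. The libraries with PTK6 also held more PSPC1 reads, 930 against 209 for PSPC1 and 2539 against 71 for PSPC1-Y523F. PTK6 and the level of PSPC1 therefore cannot be told apart in these 2 comparisons. In PSPC1/PTK6 against PSPC1 cells, 0 of 38 members were past 1.5-fold in either direction, against 8.09% higher and 7.34% lower over all genes, and the changes ran from -0.55 (HNRNPUL1) to 0.34 (MBNL1). In PSPC1-Y523F/PTK6 against PSPC1-Y523F cells HNRNPAB was the 1 of 38 members that was lower, by 0.61 on the log2 scale, and 0 were higher, against 9.28% and 10.4%. In TMM-scaled counts these were 3 and 0 members, after the GC content and length fit 1 and 5, and in FPKM as deposited 2 and 4. All were lower, except 1 of the 2, which was higher where 18.4% of all genes were. In TMM-scaled counts 7.86% and 8.67% of all genes were lower, after the fit 6.7% and 10.3%, and as deposited 3.13% and 10.7%. Whether PTK6 acted differently on the 2 forms of PSPC1 could not be tested.

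Set against each other, the 2 Mahlavu transfectants were at least 1.5-fold apart in 7 of 37 members. In PSPC1-CT131 against PSPC1-mutNLS, SRSF1, SRSF6 and HNRNPM were at least 1.5-fold higher, and SRSF11, PTBP3, CELF1 and MBNL2 at least 1.5-fold lower, against 14.9% higher and 15.2% lower over all genes. SRSF11 was 2.47-fold lower and MBNL2 2.83-fold lower, the largest differences of the list, and HNRNPM was 1.84-fold higher. This comparison had a GC trend of 0.57, and the counts were 11 higher and 3 lower after the GC content and length fit and 1 higher and 7 lower in FPKM as deposited. Of all genes 10.6% were higher and 9.37% lower after the fit, and 9.24% higher and 22.6% lower as deposited. SRSF11, HNRNPM, CELF1 and MBNL2 stayed past 1.5-fold in the same direction under every scaling, pseudocount and fit tried. SRSF1, SRSF6 and PTBP3 fell short of 1.5-fold under some of these, without a change of direction.

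HGF moved few genes past 1.5-fold, in the list or outside it. In Huh-7 cells 0 of 40 members were past 1.5-fold after 48 h, against 1.81% higher and 1.45% lower over all genes. With shares this small, 0 of 40 does not set the members apart. At a minimum mean of 20 FPKM it was 0 of 35 members, against 0.138% higher and 0.155% lower over all genes. The members' changes ran from -0.37 to 0.25, with 29 below 0 and 11 above it. The share of all genes below 0 was not computed. The most negative was that of HNRNPM, at 131 FPKM untreated and 99.6 with HGF, followed by TRA2A at 35.4 and 27.7 FPKM. The most positive was that of MBNL2, at 9.24 and 11.1 FPKM. The 12 SR proteins summed to 1017 and 941 FPKM, and HNRNPC, SRSF5 and SRSF11 were at 484 and 498, 161 and 164, and 112 and 116 FPKM.

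Companion lists covered the rest of the splicing machinery, with the shares of all genes given beside their counts. Of 38 core spliceosome genes compared, 2 were at least 1.5-fold lower and 1 higher with PSPC1, and 5 and 2 with PSPC1/PTK6. With PSPC1-Y523F these counts were 0 and 1, and 0 and 0 where PTK6 was added. They were 7 and 0 in the library labelled PSPC1-CT131 and 6 and 1 in that labelled PSPC1-mutNLS, and the medians of the 6 comparisons lay between -0.27 and -0.05. In this order the lower genes were 5.26%, 13.2%, 0%, 0%, 18.4% and 15.8% of the core list. Over all genes 8.66%, 12.8%, 9.33%, 7.1%, 12.3% and 11.3% were lower. The higher core genes were at most 5.26% of the list, where 8.19% to 12.4% of all genes were higher. SF1, the branch point binding protein, was at 314 FPKM in SK-Hep1 mock and at 200 with PSPC1 and 159 with PSPC1/PTK6, while DDX39B, an RNA helicase of export and spliceosome assembly, was higher, at 20.6 against 40.3 and 39.6. SF3B1 and SF3B6, subunits of the U2 particle, were at 200 and 157 FPKM in Mahlavu mock, 104 and 61.2 in the library labelled PSPC1-CT131, and 227 and 153 in that labelled PSPC1-mutNLS. In the latter U2AF2, which binds the polypyrimidine tract, was at 237 against 394 FPKM in mock.

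The kinases that phosphorylate SR proteins and the importins that carry them moved in both directions. Of 10 compared, 1 was lower and 1 higher with PSPC1, 0 and 1 with PTK6 added, 0 and 2 with PSPC1-Y523F, 0 and 0 where PTK6 was added to it, 4 and 0 in the library labelled PSPC1-CT131 and 0 and 1 in that labelled PSPC1-mutNLS. Each gene is 10% of this list, near the 7.1% to 12.8% of all genes lower and 8.19% to 12.4% higher. The 4 lower in the library labelled PSPC1-CT131 were 40%, against 12.3% of all genes. CLK1, the kinase that releases SR proteins from speckles, was at 6.43 FPKM in SK-Hep1 mock and 14.4 with PSPC1/PTK6, and at 28.6 in Mahlavu mock and 9.26 in the library labelled PSPC1-CT131. Among 30 to 33 other splicing regulators, 3, 6, 0, 1, 5 and 8 were lower in the 6 comparisons, in the order used above, and 1, 1, 0, 0, 0 and 0 higher. The lower ones were 9.09%, 18.8%, 0%, 3.12%, 16.7% and 26.7%, against 8.66%, 12.8%, 9.33%, 7.1%, 12.3% and 11.3% of all genes. SFPQ, a paraspeckle protein that pairs with PSPC1, was at 244 and 121 FPKM in Mahlavu mock and the library labelled PSPC1-mutNLS.

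Apart from the constructs, the lines themselves differed in 10 of the 40 members. The 5 SK-Hep1 and 3 Mahlavu libraries were compared by edgeR's quasi-likelihood test on read counts with Benjamini-Hochberg adjustment over 15229 genes. The spread within a line is that between its transfectants, so the p-values measure only that spread. At adjusted p under 0.05, 7 members were higher and 3 lower in SK-Hep1, where 23.9% of all genes were higher and 27.8% lower. HNRNPA1 was 960 ± 232 FPKM (SD, n = 5) in SK-Hep1 and 450 ± 105 FPKM (SD, n = 3) in Mahlavu, a 2.6-fold difference in TMM-scaled counts (edgeR adjusted p = 0.00104), and the lines did not overlap. RBFOX2, which binds UGCAUG and drives mesenchymal exons, was 87.8 ± 7.84 FPKM and 57.4 ± 4.2 FPKM (edgeR adjusted p = 0.00207), again without overlap. HNRNPL, which binds CA repeats, was 1.86-fold higher in SK-Hep1 (edgeR adjusted p = 0.00897), and HNRNPC, HNRNPD, HNRNPM and TRA2A were 1.56-fold to 1.85-fold higher with adjusted p between 0.0118 and 0.0321 and overlapping FPKM.

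MBNL2, MBNL3 and QKI were higher in Mahlavu, while MBNL1 did not pass (edgeR adjusted p = 0.312). MBNL3 had 2 reads in the 5 SK-Hep1 libraries together and 367 in the 3 Mahlavu libraries, a ratio of 331 after scaling to total reads, with an exact 95% interval of 91 to 2745 for counting error only (edgeR adjusted p = 1.08e-05). It was far more abundant in Huh-7, at 60.5 and 57.2 FPKM against 0.685 to 2.76 FPKM in Mahlavu. MBNL2 was 2.75-fold higher in Mahlavu than in SK-Hep1 (edgeR adjusted p = 0.00362), with the library labelled PSPC1-CT131, at 11.8 FPKM, inside the SK-Hep1 range of 5.09 to 12.3. QKI, the STAR protein that drives circular RNA formation and mesenchymal exons, was 1.49-fold higher in Mahlavu (edgeR adjusted p = 0.0179), at 23.3 to 32.6 FPKM against 13.1 to 20.8. HNRNPA1, HNRNPC, HNRNPL, MBNL2, MBNL3 and RBFOX2 passed whichever library was left out, and without the SK-Hep1 PSPC1/PTK6 library the count was 16, with 13 higher. PTBP1 was 1.69-fold higher in SK-Hep1 with edgeR adjusted p = 0.0529 and did not pass.

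**Figure D5:**
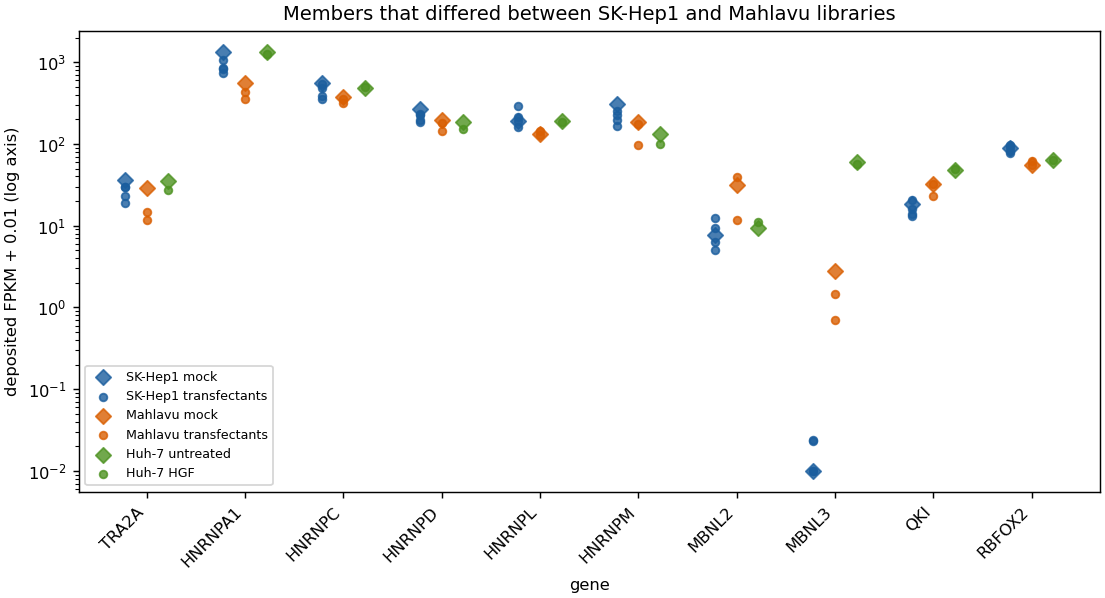
Deposited FPKM (log axis, 0.01 added so that 0 can be drawn) of the 10 members that differed between SK-Hep1 (blue) and Mahlavu (orange) libraries, with the Huh-7 libraries (green) beside them and the mock or untreated library of each line as a diamond. HNRNPA1 lies higher in SK-Hep1, MBNL2, MBNL3 and QKI higher in Mahlavu, and MBNL3 at 60.5 and 57.2 FPKM in Huh-7.

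Huh-7, the line with hepatocyte transcripts, differed in the order of levels, described here from FPKM without a test. PTBP3 stood at 64.5 and 64.4 FPKM against 10.9 to 24.6 in SK-Hep1 and 9.17 to 17.5 in Mahlavu, and PTBP1 exceeded it 5.8-fold and 5.62-fold there. HNRNPH1 was at 420 and 394 FPKM against at most 248 elsewhere, SRSF5 at 161 and 164 against at most 87.4, SRSF11 at 112 and 116 against at most 90.6, and QKI at 48.1 and 49.7 against at most 32.6. HNRNPF, at 81.1 and 79.8 FPKM, was below all other libraries, whose lowest value was 114. For SRSF1, HNRNPA3, HNRNPU and ELAVL1 the 2 Huh-7 values lay within the range of the other 8 libraries.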

How the data were processed

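RNA-Seq of 10 libraries was analysed. The authors deposited read counts per gene, not normalized, for the 8 SK-Hep1 and Mahlavu libraries, and FPKM for all 10. The submitters' processing notes name TopHat2 (2.0), HTSeq (0.6.1), edgeR and GRCh38.p12. The labels describe poly-A selection and the methods rRNA depletion. Deposited FPKM equalled the count over total reads and 1 length per gene, so Huh-7 reads were recovered, whole within 0.01 read for 100% of values. FPKM were quantile normalized over the 8 libraries and, separately, over both Huh-7 libraries, where the study's methods name all samples together, and compared as log2(FPKM + 1) with a minimum mean of 1 FPKM. Counts of SK-Hep1 and Mahlavu libraries were tested with edgeR 4.0.16 (TMM, quasi-likelihood), with DESeq2 1.42.0 and limma 3.58.1 as alternatives, in R 4.3.3 and Python 3.11.15. Symbols came from Ensembl identifiers. Named were all 40 members, PSPC1, PTK6 and at most the 2 most changed genes past 1.5-fold per companion list and comparison. CPS1, SERPINA1 and ALB stand for the marker list. Scripts were tested on simulated data. Members, lists and tests were chosen with earlier results of these data known. Of each table, 8 lines without values were left out. Tables held 0 columns of other series. Intervals cover counting error only.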

Additional observations from a re-analysis of the deposited data

How the results depend on the processing

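No paired analysis was possible because each condition had 1 library and all libraries carry the same number. At a 2-fold threshold 0 members passed with PSPC1, 2 with PSPC1/PTK6, 0 with PSPC1-Y523F, 0 where PTK6 was added to it, 1 in the library labelled PSPC1-CT131 and 7 in that labelled PSPC1-mutNLS, against mock, and 0 for PTK6 added to PSPC1-Y523F and 2 between the Mahlavu transfectants. All that passed were lower. In this order 2.19%, 3.32%, 2.46%, 1.59%, 3.16%, 3.26%, 2.2% and 4.59% of all genes were at least 2-fold lower. After the GC content and length fit the counts were 5 for PSPC1-Y523F, 2 for PSPC1-CT131, 1 for PTK6 added to PSPC1, 5 for PTK6 added to PSPC1-Y523F and 14 between the Mahlavu transfectants. In TMM-scaled reads they were 8 for PSPC1-CT131, 3 for PTK6 added to PSPC1 and 0 for PTK6 added to PSPC1-Y523F. PTK6 added to PSPC1 gave 1 with a pseudocount of 0.1 and 2 in FPKM as deposited, PTK6 added to PSPC1-Y523F gave 4 in FPKM as deposited, and the Mahlavu transfectants gave 4 with a pseudocount of 5. The cause of these shifts was not tested. In FPKM as deposited the median of all genes was 0.15 for PSPC1/PTK6, -0.24 for PSPC1-CT131, -0.13 between the Mahlavu transfectants and 0.20 for PTK6 added to PSPC1, against -0.04, 0.01, 0.01 and -0.02 after quantile normalization.

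Between SK-Hep1 and Mahlavu, leaving out each library in turn gave 7 to 16 members, 16 without SK-Hep1 PSPC1/PTK6. DESeq2 gave 12 and limma 7. HNRNPA1, HNRNPL, RBFOX2, TRA2A, MBNL2 and QKI passed with each of the 3 tools. A minimum mean of 20 FPKM and the other scalings of the mock rank were chosen after seeing the data, and gave counts within 1.5 times those reported. Among the alternative values of single members, 2822 stayed within counting error or kept their call between the lines. A further 500 moved by more, 13 became stronger, 16 weaker and 0 reversed. Reversal was counted only for changes past 1.5-fold or, between the lines, at adjusted p under 0.05. Smaller changes could change sign: SRSF4 with PSPC1-CT131 was 0.09 on the log2 scale, but at 42.8 FPKM as deposited against 44.6 in mock.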

Other observations

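SRSF1 and HNRNPA1 act against each other at many exons, and HNRNPA1 exceeded SRSF1 in deposited FPKM in all 10 libraries. In SK-Hep1 the ratio of HNRNPA1 to SRSF1 was 12.7 in mock cells, 19.7 with PSPC1, 15.8 once PTK6 was added, and 8.11 and 11 with PSPC1-Y523F without and with PTK6. In Mahlavu it was 4.8 in mock cells, 6.12 in the library labelled PSPC1-CT131 and 7.29 in that labelled PSPC1-mutNLS, and in Huh-7 it was 13.8 untreated and 15.3 with HGF. The libraries with PSPC1 lay above mock and those with PSPC1-Y523F below it, each with 1 library and without a test.

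TRA2B exceeded TRA2A 3.22-fold in SK-Hep1 mock and 2.42-fold to 3.64-fold in its transfectants, and 4.67-fold in Mahlavu mock against 6.51-fold and 6.18-fold in the libraries labelled PSPC1-CT131 and PSPC1-mutNLS. The ratio of MBNL1 to MBNL2 was 1.93 in SK-Hep1 mock, 1.04 to 2.35 in its transfectants, 0.682 in Mahlavu mock, and 1.09 and 0.581 in the same Mahlavu libraries.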
